A study of Homo sapiens with 11 samples.

Results

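LOUCY, PEER and MOLT-14 are T-cell acute lymphoblastic leukemia (T-ALL) lines known for a gamma-delta T-cell receptor, and JURKAT, HPB-ALL and MOLT-16 are T-ALL lines known for an alpha-beta receptor. These 3 lines were compared with those 3 across 19775 genes. The series holds 11 established human T-ALL lines, and the other 5, ALL-SIL, CCRF-CEM, CML-T1, MOLT-4 and SUP-T1, are given for reference only. The members were chosen by the name of the line, since the sample labels carry no receptor type. The labels split the lines by expression of NKL homeobox genes, the comparison of the study, and this status was balanced: LOUCY and PEER were NKL-positive and MOLT-14 NKL-negative, while JURKAT and HPB-ALL were NKL-positive and MOLT-16 NKL-negative. Total RNA of each line was read on a single array of the type HG U133 Plus 2.0, so the line is the replicate, and the p-values measure the spread between lines that also differ in donor, oncogenes and stage of arrest. An established line stands for 1 leukemia, and 3 of them cannot stand for all leukemias with a given receptor.

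T-cells carry either of the receptor types, a heterodimer of alpha and beta chains or of gamma and delta chains, each assembled from gene segments by V(D)J recombination in the thymus. The delta locus lies inside the alpha locus, so a rearrangement of alpha segments deletes delta on that allele. Cells of the alpha-beta lineage pass through a stage with both CD4 and CD8, the double positive stage, whereas most gamma-delta cells leave the pathway earlier. T-ALL cells are thymocytes arrested along this course, and their receptor type is a mark of the stage and branch at which they stopped.

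Values are RMA expression values on the log2 scale, in which 1 unit is a 2-fold step. Array medians ran from 4.63 to 4.76, and a lower quartile of 3.45 to 3.60 gives an idea of where unexpressed genes read. The deposited file gives no detection call. Levels can be compared between lines for 1 probe set, but not between genes. Spiked-in poly-A control transcripts read at 3.01 in MOLT-16, 3.09 in HPB-ALL and 3.14 in CML-T1, against 5.96 to 9.48 in the other 8 lines. Hence 2 of the 3 alpha-beta lines, but no gamma-delta line, had these controls at background, and the comparison within the lines that carry them is that of the gamma-delta lines with JURKAT alone. The 3′ minus 5′ difference of ACTB, a sign of RNA integrity, was 0.33 ± 0.14 (SD, n = 3) in the gamma-delta lines and 0.80 ± 0.25 (SD, n = 3) in the alpha-beta lines. These groups did not overlap, and the exact permutation p, two-sided, was 0.1, the smallest that 3 lines against 3 can give. The array medians did not overlap either, at 4.70 to 4.76 and 4.63 to 4.68. The GAPDH and ribosomal RNA controls overlapped. The part of preparation and RNA integrity in the differences below was not tested.

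The label was checked first at the receptor loci. TRDV3, a variable segment of the delta chain, read 13.15 in LOUCY, 12.19 in PEER and 10.02 in MOLT-14, but 3.31 in HPB-ALL, 3.0 in MOLT-16 and 2.74 in JURKAT. All 3 gamma-delta lines were thus high and all 3 alpha-beta lines at background. The mean difference was 8.77 (SE 0.77), the widest separation of any gene, with an adjusted p of 0.141 in limma. Of the reference lines, ALL-SIL also read high, at 12.36, while the other 4 read 2.66 to 3.04. A second TRDV3 probe set stayed at 2.96 to 3.67 in all 11 lines. The array annotation places 2 further probe sets with this pattern under YME1L1, a mitochondrial protease gene. They read 10.39 to 13.72 in the gamma-delta lines, 3.66 to 4.58 in the alpha-beta lines and 11.29 to 12.32 in ALL-SIL, while the brightest YME1L1 probe set did not separate the groups (difference -0.04, SE 0.22). Another probe set under YME1L1 ran the other way, with 13.37 in HPB-ALL, 13.0 in MOLT-16 and 11.81 in JURKAT, against 10.29 in LOUCY, 4.83 in PEER and 3.57 in MOLT-14 (difference -6.50, SE 1.67, adjusted p = 0.467). Which transcripts these 3 probe sets detect was not tested. Nor was it tested whether the high TRDV3 probe set detects that segment itself in each line.

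The named genes of the other loci did not distinguish the groups. The constant region of the beta chain, TRBC1, read 13.74 in LOUCY, 12.96 in PEER and 13.21 in MOLT-14, against 13.89 in HPB-ALL, 13.69 in MOLT-16 and 13.44 in JURKAT. Beta transcripts were therefore abundant in all 6 lines, and the difference was -0.37 with a 95% confidence interval from -1.08 to 0.34. The 4 probe sets shared by the gamma chain genes TARP, TRGV9 and TRGC2 read 10.62 to 12.93 in the gamma-delta lines and 8.29 to 13.34 in the alpha-beta lines, with differences of 0.30 to 0.63. JURKAT was the lowest alpha-beta line here (8.29 to 9.12), whereas MOLT-16 exceeded all gamma-delta lines on all 4. The annotation holds no probe set under TRAC or TRDC alone, so the constant regions of alpha and delta were not analysed here. The alpha segment TRAV12-2 read 3.26 to 3.70 in the gamma-delta lines, 3.31 in HPB-ALL and JURKAT and 5.49 in MOLT-16, and TRAV8-3 read 3.78 to 4.76 and 3.48 to 4.30, so these segments did not separate the groups. Among the single-symbol receptor genes, TRDV3 alone separated the groups.

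**Figure D1:**
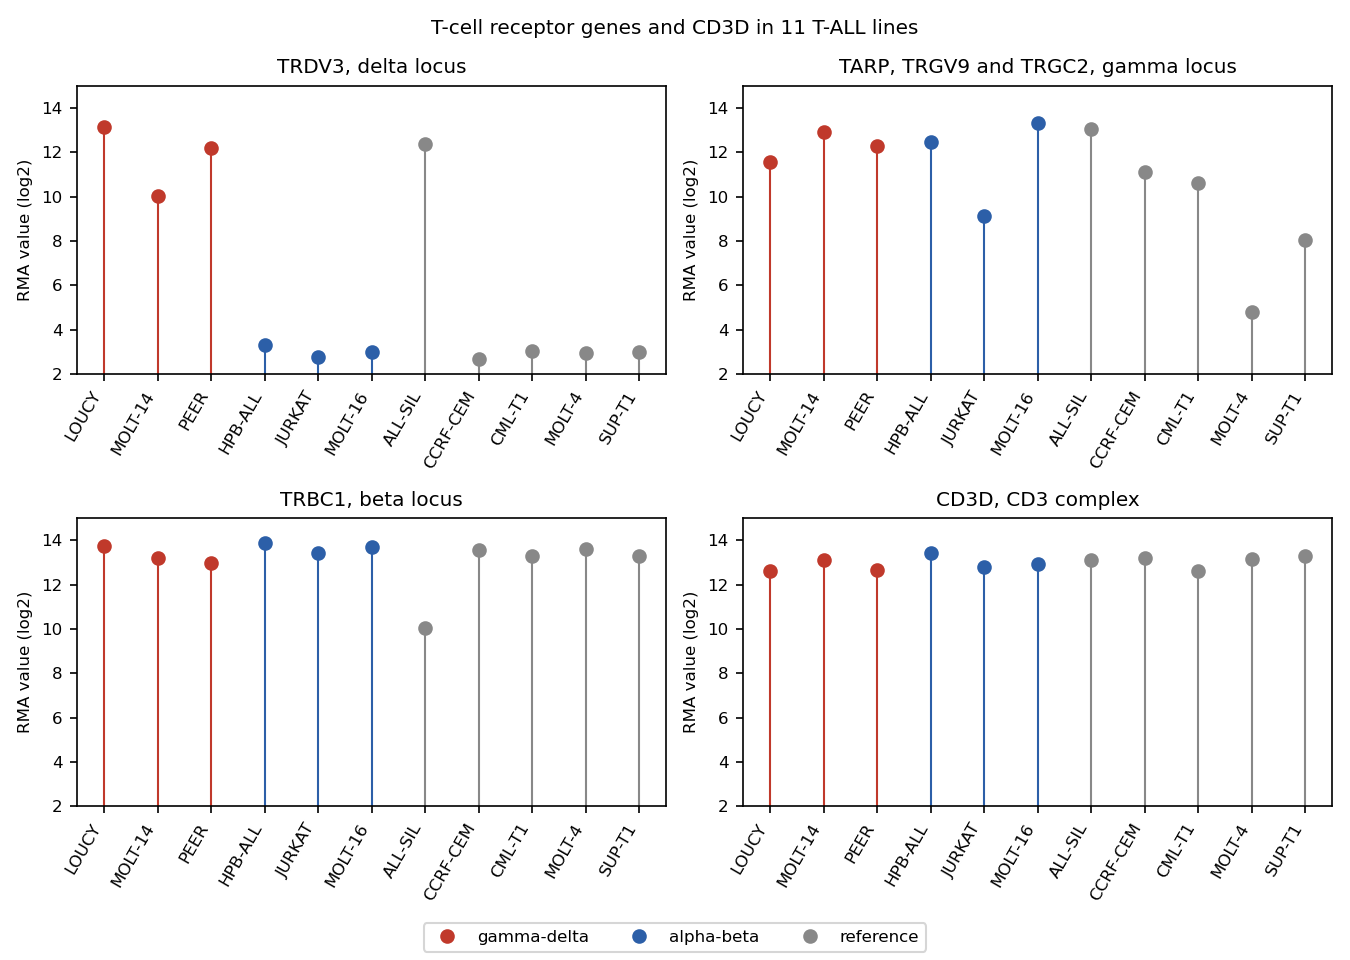
RMA values (log2, y axis) of a delta, a gamma and a beta chain probe set and of CD3D in each of the 11 lines (x axis), with gamma-delta lines in red, alpha-beta lines in blue and reference lines in grey, 1 array per line. TRDV3 reads 10.02 to 13.15 in the gamma-delta lines and 12.36 in ALL-SIL and is at background elsewhere, while the other panels show no separation.

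CD3 chains, which carry the signal of either receptor, read alike in both groups. CD3D was 12.64 in LOUCY, 12.67 in PEER and 13.11 in MOLT-14, against 13.44, 12.95 and 12.82 in HPB-ALL, MOLT-16 and JURKAT. Of the 6 genes for CD3 chains and the pre-receptor, 0 were called and 0 separated the groups, with a median difference of -0.17. CD3G had the lowest p of them (difference -0.83, 95% confidence interval -2.05 to 0.38), and its direction turned within the lines with poly-A controls (0.22). CD3D, CD3E, CD3G and CD247 were high in all 6 lines (9.17 to 13.44), while the pre-receptor gene PTCRA read 5.25 in MOLT-16 to 8.56 in HPB-ALL.

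Across all 54613 probe sets 1 was called at an adjusted p under 0.05 (0.00183%), and it belonged to ERG, so 1 gene was higher in the gamma-delta lines (0.00506% of genes) and 0 were lower. At an unadjusted p under 0.05 limma counted 9.34% of the probe sets, with 1057 higher genes (5.35%) and 822 lower genes (4.16%). The groups did not overlap for 1570 higher genes (7.94%) and 1367 lower genes (6.91%). The gamma-delta lines lay above all 8 other lines for 152 genes (0.769%) and below them for 149 (0.753%).

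ERG encodes an ETS family transcription factor of hematopoietic stem cells and early thymocytes, which is silenced as T-cells mature. It read 9.23 in LOUCY, 9.46 in PEER and 8.62 in MOLT-14, against 3.16 in HPB-ALL, 3.25 in MOLT-16 and 3.55 in JURKAT. The gene was clearly on in each gamma-delta line and at background in each alpha-beta line, a difference of 5.78 (SE 0.30, adjusted p = 0.0309 in limma). All 4 ERG probe sets pointed the same way. The call was lost on leaving out any 1 line, with differences of 5.61 to 6.03, and with a term for the poly-A controls (5.55, adjusted p = 0.111). Over 19 alternatives the adjusted p ran from 0.0136 to 0.973, with 6 calls. ERG was not particular to the gamma-delta lines, since CCRF-CEM read 8.32 and MOLT-4 8.55, while the remaining reference lines read 2.92 to 3.73.

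The 250 bases upstream of a start of ERG, HOXB-AS1 and CD2 are shown because these genes lead the comparison and have an entry in the promoter table of RefSeq (GRCh38.p14), in which 48 of 77 genes with printed differences were found. For ERG, the farthest upstream of 4 listed starts was taken (chr21:38660668-38660917, minus strand), and HOXB-AS1 (chr17:48544101-48544350) and CD2 (chr1:116754180-116754429) lie on the plus strand. Capitals mark matches on either strand to core motifs of RUNX, ETS or GATA factors, families that regulate T-cell genes.
ERG: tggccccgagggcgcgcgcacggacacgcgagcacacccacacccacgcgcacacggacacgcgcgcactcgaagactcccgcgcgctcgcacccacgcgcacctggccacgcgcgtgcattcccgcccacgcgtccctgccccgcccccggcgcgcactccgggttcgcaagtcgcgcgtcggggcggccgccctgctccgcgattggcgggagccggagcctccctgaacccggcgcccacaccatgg
HOXB-AS1: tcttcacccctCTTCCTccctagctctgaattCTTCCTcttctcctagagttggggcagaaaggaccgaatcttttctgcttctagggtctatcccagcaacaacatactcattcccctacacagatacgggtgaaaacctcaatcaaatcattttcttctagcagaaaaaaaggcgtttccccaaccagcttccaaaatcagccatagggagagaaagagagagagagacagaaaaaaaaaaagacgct
CD2: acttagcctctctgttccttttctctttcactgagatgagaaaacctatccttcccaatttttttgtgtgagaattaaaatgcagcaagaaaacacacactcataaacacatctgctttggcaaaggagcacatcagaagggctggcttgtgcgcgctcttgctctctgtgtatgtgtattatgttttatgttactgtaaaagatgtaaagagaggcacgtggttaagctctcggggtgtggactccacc
HOXB-AS1 held 2 ETS matches and the others none of the 3 motifs. The ETS motif was spelled AGGAAG, and 28.7% of all 35116 windows of this length held it. The motif TGTGGT stood for RUNX factors and was held by 11% of the windows. For GATA factors the letters AGATAA were searched, which 9.17% of the windows held. The E-box CANNTG, bound by E proteins such as TCF12 and met in 61.8% of windows, was counted but not capitalized. It occurred 1 time for ERG, 2 times for CD2 and 0 times for HOXB-AS1. No match of a motif overlapped one of another. These matches describe the letters only.

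The 12 genes with the widest gap in favour of the gamma-delta lines had differences of 2.55 to 8.77 and gaps of 1.49 to 6.71 between the nearest lines, but only ERG was called. HOXB2, a homeobox gene of the HOX class, read 9.25 in LOUCY, 10.15 in PEER and 8.45 in MOLT-14, against 4.38, 3.76 and 3.98 in HPB-ALL, MOLT-16 and JURKAT (difference 5.24, SE 0.46, adjusted p = 0.141). It was low in all reference lines too (3.51 to 4.58), so the 3 gamma-delta lines stood above the other 8. BCL2L2, which encodes the survival factor BCL-w, read 7.12, 7.01 and 8.16 in LOUCY, PEER and MOLT-14 and 5.28, 3.82 and 3.92 in HPB-ALL, MOLT-16 and JURKAT. ATP9A, of the lipid flippase family, differed by 4.02 (SE 0.43), and ISYNA1, an enzyme of inositol synthesis, by 4.95 (SE 0.58). ABCA1, a cholesterol exporter, differed by 3.17, and LPAR6, a receptor for lysophosphatidic acid, by 2.55, though 1 of its 2 probe sets had the opposite sign. TFPI, an inhibitor of coagulation, differed by 4.18 with a wide spread (6.22 in LOUCY, 10.01 in PEER). The membrane protein genes TTYH1 and NRXN2 differed by 2.66 and 2.67. Of these 12, ERG, HOXB2, ATP9A, HOXB-AS1, TTYH1 and BCL2L2 exceeded all 8 other lines. The margin was narrowest for ERG (8.62 in MOLT-14, 8.55 in MOLT-4) and ATP9A (8.72 in PEER, 8.58 in ALL-SIL).

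Among the 12 genes with the widest gap in favour of the alpha-beta lines, CD2 had the largest difference. CD2 encodes an adhesion receptor of T-cells and read 4.43 in LOUCY, 4.16 in PEER and 5.73 in MOLT-14, against 9.97 in HPB-ALL, 10.12 in MOLT-16 and 10.89 in JURKAT (difference -5.55, SE 0.49, adjusted p = 0.141). The reference lines fell on both sides, with 10.09 in MOLT-4, 6.62 in CCRF-CEM and 4.13 to 4.81 in the other 3. SIMC1, whose protein binds SUMO, read 3.55, 3.31 and 3.25 in LOUCY, PEER and MOLT-14 and 8.84, 7.64 and 8.02 in HPB-ALL, MOLT-16 and JURKAT. Its reference lines read 7.24 to 9.40, so its low level was found in the gamma-delta lines alone among these 11. FAT1, an atypical cadherin, was also below all 8 other lines, although MOLT-14 (8.78) was close to the lowest of them (8.84). CAMK4, a calcium-dependent kinase downstream of the T-cell receptor, read 6.87 to 7.14 against 9.30 to 9.41, the tightest of these separations, and its 3 probe sets agreed in direction (difference -2.35, SE 0.22, adjusted p = 0.155). GPR160, an orphan receptor, differed by -4.96, and DCBLD1 by -4.13. NDFIP2, an adaptor of ubiquitin ligases, differed by -4.05, TRIM36, a ubiquitin ligase, by -3.51, KBTBD11 by -2.89, LOC105379426 by -2.84, PPP1R3B, a glycogen-targeting phosphatase subunit, by -2.58 and ZBTB6 by -2.39. Some probe sets of TRIM36, PPP1R3B and NDFIP2 had the opposite sign.

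**Figure D2:**
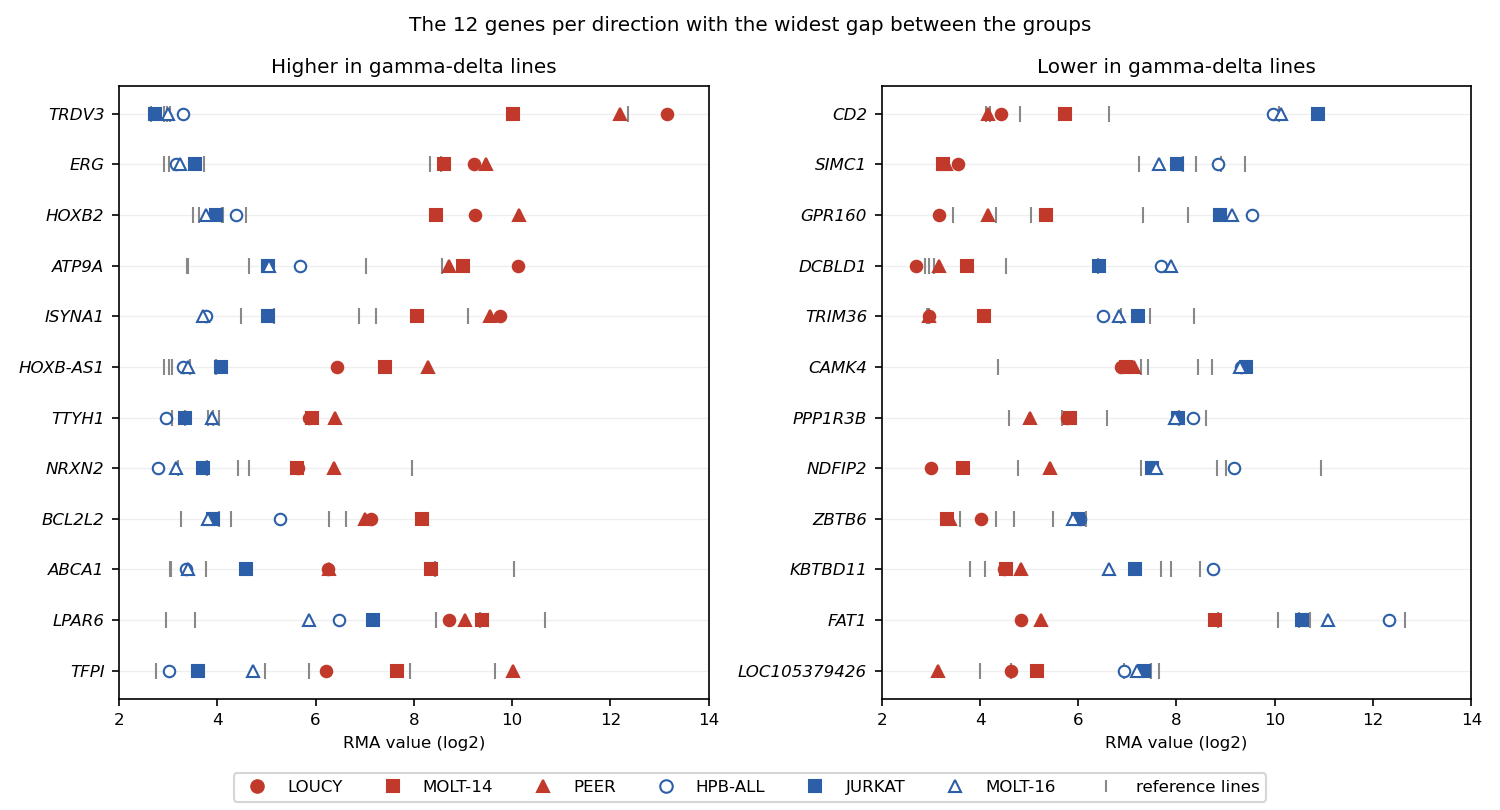
RMA values (log2, x axis) of the 12 genes per direction with the widest gap between the groups (y axis), 1 symbol per line, with gamma-delta lines in red, alpha-beta lines in blue, open symbols for lines with poly-A controls at background and grey ticks for the reference lines. The red and blue symbols do not overlap by construction, and the grey ticks lie on both sides for most genes.

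The reference lines did not follow either group as a whole. Measured against the midpoint of the group means, SUP-T1 lay on the gamma-delta side for 1 of the 12 higher genes, ALL-SIL and CML-T1 for 3, MOLT-4 for 5 and CCRF-CEM for 6. For the 12 lower genes, CCRF-CEM and CML-T1 lay on the gamma-delta side for 4, MOLT-4 for 5 and ALL-SIL and SUP-T1 for 7. ALL-SIL therefore shared the high TRDV3 reading with the gamma-delta lines but not most of the other higher genes.

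HOXB2 and HOXB-AS1 are neighbours in the HOXB cluster on chromosome 17, so its other genes were read as well, a choice made after these values were seen. HOX genes encode transcription factors of body patterning and are active in blood progenitors. HOXB-AS1, an antisense RNA that overlaps HOXB2 and HOXB3, read 6.44 in LOUCY, 8.28 in PEER and 7.42 in MOLT-14, against 3.31, 3.40 and 4.08 in HPB-ALL, MOLT-16 and JURKAT (difference 3.78, SE 0.50). All 10 protein-coding genes of the cluster had a difference above 0 (0.41 to 5.24), as had 52.1% of all genes. The sign was not stable throughout. Without LOUCY, HOXB8 differed by -0.22 and HOXB9 by -0.29, and against JURKAT alone HOXB7 differed by -0.48 and HOXB13 by -0.41. For HOXB1 and for HOXB13, 1 of 2 probe sets had the opposite sign. None of the 10 genes was called, and the groups were apart for 3 of them, HOXB2, HOXB3 and HOXB5, beside 7.94% of all genes in this direction. The separation of HOXB2 led to the choice of the cluster, so it was fixed in advance. On a second HOXB3 probe set the groups overlapped, with 5.15 in PEER and 5.27 in JURKAT. HOXB3 read 9.84, 9.28 and 9.49 in LOUCY, PEER and MOLT-14, yet JURKAT with 9.06 was close to them, and the difference of 3.07 came from HPB-ALL (3.31) and MOLT-16 (7.03), the lines with poly-A controls at background. HOXB5 differed by 2.37 and HOXB4 by 1.45, and HOXB7, where JURKAT read 7.82, by 2.26. For HOXB5 the difference from JURKAT alone was 1.47, and the reference line MOLT-4 (6.06) exceeded PEER (5.84). Farther along the cluster LOUCY stood alone, with HOXB6 at 9.27, HOXB8 at 8.63 and HOXB9 at 7.92, while PEER and MOLT-14 read 5.10 and 3.32, 2.86 and 2.66, and 4.45 and 3.74. The gamma-delta lines thus shared high HOXB2 and HOXB-AS1, but not HOXB6, HOXB8 and HOXB9.

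**Figure D3:**
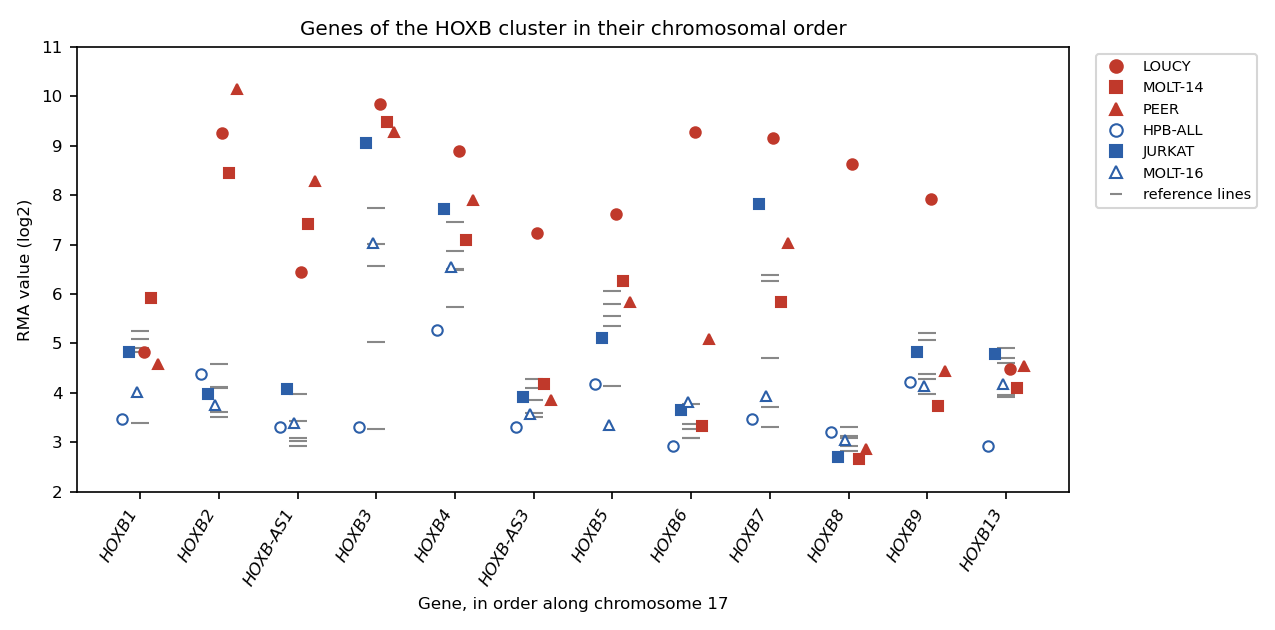
RMA values (log2, y axis) of the measured HOXB genes in their order along chromosome 17 (x axis), with gamma-delta lines in red, alpha-beta lines in blue, open symbols for lines with poly-A controls at background and grey dashes for the reference lines. HOXB2 and HOXB-AS1 separate the groups, and LOUCY alone is high for HOXB6, HOXB8 and HOXB9.

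Gene lists were read by their counts and medians beside those of all 19775 genes, of which 52.1% had a difference above 0 and 14.9% had groups apart, with a median difference of 0.03. The double positive and alpha-beta stage genes were lower in the gamma-delta lines for 19 of 20 members, with a median of -1.51. Groups were apart for 3 of them, a share close to that of all genes. The list mean was 5.94 in LOUCY, 6.16 in PEER and 7.34 in MOLT-14. It was 9.97 in HPB-ALL and 8.22 in JURKAT, but 6.79 in MOLT-16, below MOLT-14. THEMIS, which sets receptor signals during thymocyte selection, read 2.92 in LOUCY, 7.45 in PEER and 5.10 in MOLT-14, against 9.13, 9.90 and 10.48 in HPB-ALL, MOLT-16 and JURKAT. The difference was -4.68 (SE 1.09, adjusted p = 0.463), and all reference lines except CML-T1 (6.62) were at or above 9.81. AQP3, a water and glycerol channel, differed by -3.26, ELOVL4, an enzyme of fatty acid elongation, by -3.81 and the nuclear factor TOX2 by -3.32, the last with overlap. None of the 20 genes was called. Leaving out HPB-ALL, the alpha-beta line with the highest mean of this list, moved the median to -0.64, and it was -0.86 without LOUCY, -2.42 without MOLT-16 and -2.48 without MOLT-14.

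Genes of V(D)J recombination gave no common direction, with 8 of 12 higher and 4 lower. The recombinases RAG1 and RAG2 were at background in all 3 gamma-delta lines (3.49 to 3.73 and 2.69 to 3.25), but also in MOLT-16 (2.75 and 3.04), while HPB-ALL and JURKAT read 7.74 and 7.88 for RAG1. POLM, a polymerase of end joining, was lower by 1.36 (difference -1.36), whereas the end joining factors XRCC6, PRKDC and XRCC5 differed by 0.66, 0.62 and 0.40. Their groups were apart by only 0.07, 0.01 and 0.12, and none of these genes was called.

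Genes of the gamma-delta lineage did not favour the gamma-delta lines. Of 24 measured, 9 were higher and 15 lower, with a median of -0.32. ZBTB16, the PLZF factor of innate-like T-cells, read 6.52 in LOUCY, 8.10 in PEER and 10.92 in MOLT-14, and 3.71, 5.09 and 6.94 in HPB-ALL, MOLT-16 and JURKAT (difference 3.27, 95% confidence interval 0.23 to 6.31, adjusted p = 0.521). JURKAT overlapped LOUCY here. EGR1, induced by receptor signals, differed by -2.43 and NR4A1, another such gene, by -0.82, both with groups apart and lower in the gamma-delta lines. For NR4A1, 1 of 3 probe sets had the opposite sign. The reference lines ran from 4.03 in ALL-SIL to 10.63 in CML-T1 for EGR1, and its difference was -0.66 with all 11 lines and a poly-A term.

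Genes of T-cell receptor signalling were mixed, with 15 of 47 higher and 32 lower. VAV3, a signalling protein of the VAV family, read 10.56, 9.99 and 9.51 in LOUCY, PEER and MOLT-14 against 7.40, 8.55 and 8.04 in HPB-ALL, MOLT-16 and JURKAT (difference 2.02, SE 0.41). The kinase TEC differed by 1.12, the calcineurin subunit PPP3CB by -0.68 and the adaptor FYB1 by -3.27, for which PEER was lowest (4.76). Among surface and costimulatory genes of T-cells, 10 of 16 were higher and 6 lower, and CD2 alone had groups apart. The 30 NK and cytotoxic genes split 14 to 16.

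Stem and progenitor genes were higher for 11 of 19 members, with a median of 0.96. Besides ERG they included HHEX, an NKL homeobox gene of early progenitors, which read 10.89 in LOUCY, 9.92 in PEER and 6.65 in MOLT-14 and 5.28, 5.62 and 3.34 in HPB-ALL, MOLT-16 and JURKAT (difference 4.41, SE 1.17). MOLT-14, the NKL-negative line, was much closer to the alpha-beta lines than LOUCY and PEER were. LYL1, a basic helix-loop-helix oncogene of early T-ALL, differed by 2.65 and GATA2, a stem cell factor, by 1.47. For LYL1, MOLT-16 at 8.59 was close to MOLT-14 at 8.69. FLT3, a receptor of progenitors, differed by -0.81. Without LOUCY, an immature line, the median of the list was 0.21, and without HPB-ALL 0.45.

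Of the T-lineage transcription factors 9 of 19 were higher and 10 lower. STAT5A and STAT5B, which act downstream of IL7 and IL2 receptors, differed by 2.50 and 0.75, and ETS1 and GFI1 by -1.18 and -1.44. STAT5A read 4.82 in HPB-ALL and 6.99 in JURKAT, but 8.88 in MOLT-16, close to 8.95 in PEER. TCF12, an E protein that partners TAL1 and LYL1, differed by -1.38, and the E and ID proteins as a list had a median of 0.03. NOTCH targets were higher for 15 of 20, with a median of 0.72, which was 0.12 without MOLT-16, 0.15 without MOLT-14 and 0.37 without JURKAT. The list means did not separate the groups. HPB-ALL, an alpha-beta line, had the highest mean of the 6 lines, and JURKAT (6.60) lay above LOUCY (6.55), while MOLT-16 was lowest (5.82). Among the NOTCH targets were HES5 (0.99) and the assembly factor SHQ1 (1.32), whose groups were apart by only 0.15 and 0.02. HES5 was low in both groups, at 4.01 to 4.64 and 3.20 to 3.86. MYC, a NOTCH target and oncogene, differed by -3.84 (SE 2.02), but LOUCY at 3.38 made most of it, with PEER at 10.92 and MOLT-14 at 11.01 and a difference of -1.32 without LOUCY. Of 15 T-ALL oncogenes outside the NKL subclass 10 were higher. Of 25 NKL homeobox genes 19 were higher, with a median of 0.23. This median was 0.08 against JURKAT alone and -0.07 with all 11 lines and a poly-A term. EMX1 differed by 1.53 and TLX1 by 0.86, though TLX1 read only 3.11 to 5.14 in the 6 lines, beside 9.30 in ALL-SIL. NKX2-5 read 10.10 in PEER, but 5.01 in LOUCY, 5.42 in MOLT-14 and 4.07 to 5.08 in the alpha-beta lines.

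Cytokine receptors and JAK-STAT genes were higher for 13 of 29. The receptor chains of IL10 were lower, IL10RB by -1.87 and IL10RA by -2.39, the latter only through HPB-ALL (7.33) and MOLT-16 (7.85), since JURKAT read 4.34 and the gamma-delta lines 4.09 to 4.16. CRLF2, the receptor for thymic stromal lymphopoietin, differed by 1.01 but was low in both groups, at 4.59 to 5.01 and 3.42 to 4.08. Among 17 homing and chemokine receptors, CXCR4, which guides thymocytes, differed by -1.09 and SELPLG, a selectin ligand, by -1.78. In apoptosis, with 12 of 27 higher, the activators APAF1 and BMF differed by -1.29 and -1.41, beside BCL2L2 with 3.09. In the cell cycle, with 15 of 31 higher, MCM5, of the replicative helicase, differed by 1.30 and the kinase CDK6 by 1.04. MHC class I genes were higher for 4 of 15 and class II genes for 5 of 12, with HLA-DMA at -1.09 and HLA-DPB1 at 0.86. In the 6 lines HLA-DMA read only 4.13 to 6.09 and HLA-DPB1 3.48 to 4.92.

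Markers of other blood cells had low list means in both groups. B-cell markers were higher for 7 of 11, myeloid markers for 12 of 15 and erythroid and megakaryocyte markers for 8 of 8, with medians of 0.70, 0.43 and 0.54. The mean of the B-cell list was 4.48 to 6.04 in the gamma-delta lines and 4.28 to 4.96 in the alpha-beta lines, highest in LOUCY. The mean of the myeloid list was 3.97 to 4.75 in the gamma-delta lines and 3.87 to 4.13 in the alpha-beta lines, and that of the erythroid list 4.73 to 5.31 and 3.80 to 4.64. PAX5 differed by 1.07 and CD79B by 2.36, the latter with overlap, while MS4A1, the gene of CD20, differed by -0.94. VPREB1 read 10.95 in LOUCY, but 5.23 in MOLT-14 and 3.52 in PEER, against 3.11 to 3.46 in the alpha-beta lines. Of the 11 B-cell markers, groups were apart for 3 higher ones (PAX5, BANK1 and VPREB1) and 1 lower one (MS4A1), beside 14.9% of all genes. GATA1 differed by 1.61. None of these markers was called. Against JURKAT alone the medians were 0.64 for the B-cell, 0.33 for the myeloid and 0.27 for the erythroid and megakaryocyte markers, and with all 11 lines and a poly-A term they were 0.49, 0.15 and 0.08. The source of these values was not tested.

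**Figure D4:**
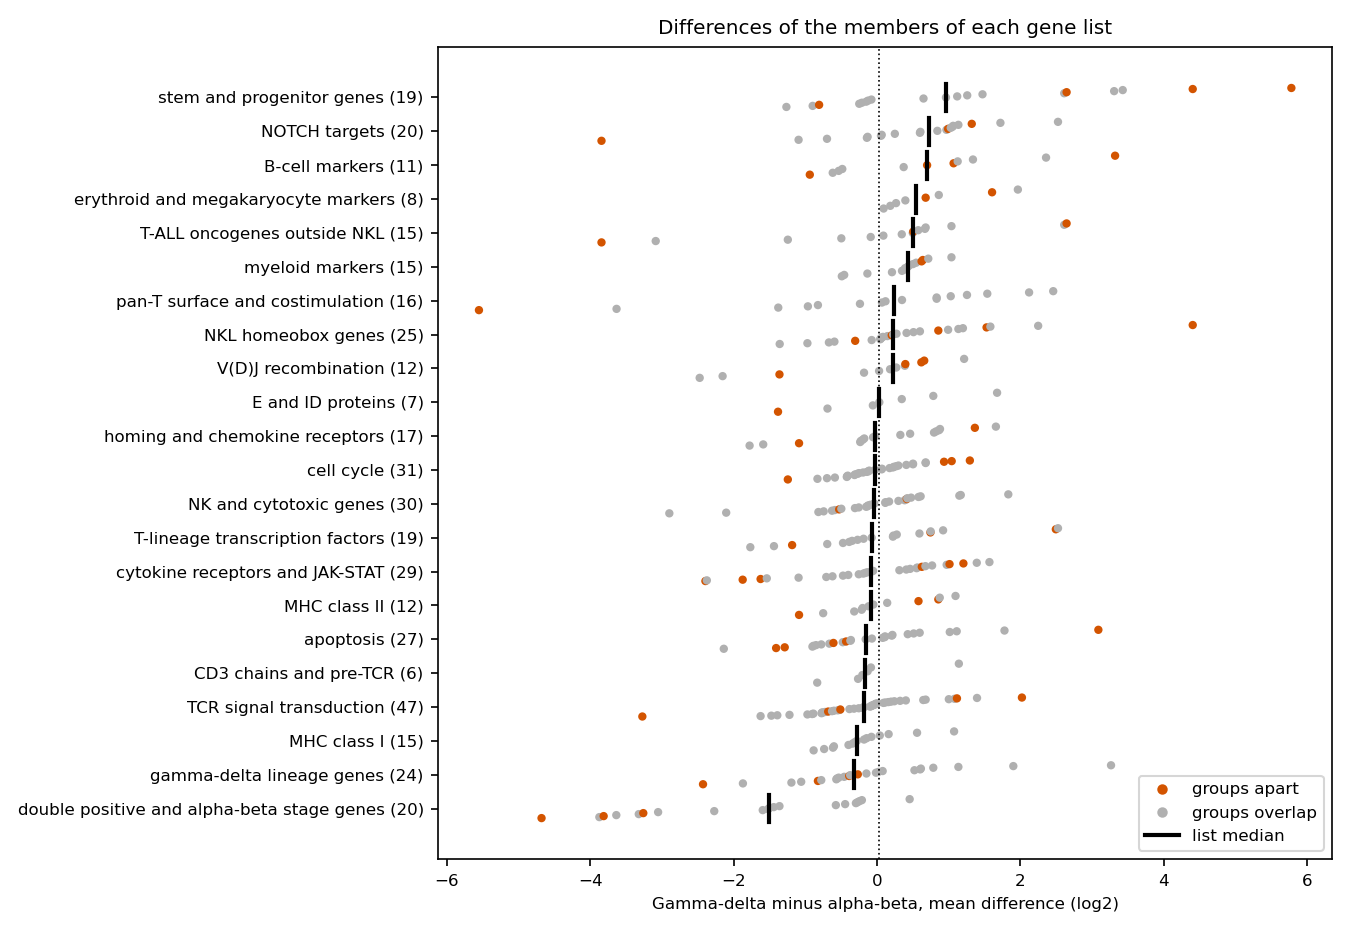
Gamma-delta minus alpha-beta difference (log2, x axis) of every measured member of the 22 gene lists (y axis, number of members in brackets), with black bars for list medians, orange points for genes whose groups do not overlap and a dotted line at the median of all genes. The double positive and alpha-beta stage genes lie lowest, with a median of -1.51, and the stem and progenitor genes highest, with 0.96.

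JURKAT is the only alpha-beta line with poly-A controls, so each difference was set beside that of the gamma-delta mean from JURKAT. For the 12 higher genes the latter ran from 1.88 to 9.05 and for the 12 lower genes from -6.12 to -2.41. Since these genes were chosen with JURKAT apart from the gamma-delta lines, their direction could not turn here, and only the sizes are given. CD2 differed by -6.12, SIMC1 by -4.65, HOXB2 by 5.30, ERG by 5.55 and THEMIS by -5.32. Of the 77 genes with printed differences, 11 had under 50% of their difference against JURKAT or the opposite sign. They were HOXB3 (0.48), HOXB4 (0.24), HOXB7 (-0.48), HOXB13 (-0.41), GATA2 (0.39), EMX1 (0.54), ZBTB16 (1.57), IL10RA (-0.23), MS4A1 (-0.20), CD3G (0.22) and TRBC1 (-0.14). Of all 162 named genes, 17 had the opposite sign. The median of the double positive list was -0.91 and that of the stem and progenitor list 0.37. With 1 alpha-beta line left, these values carry no spread of that group.

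**Figure D5:**
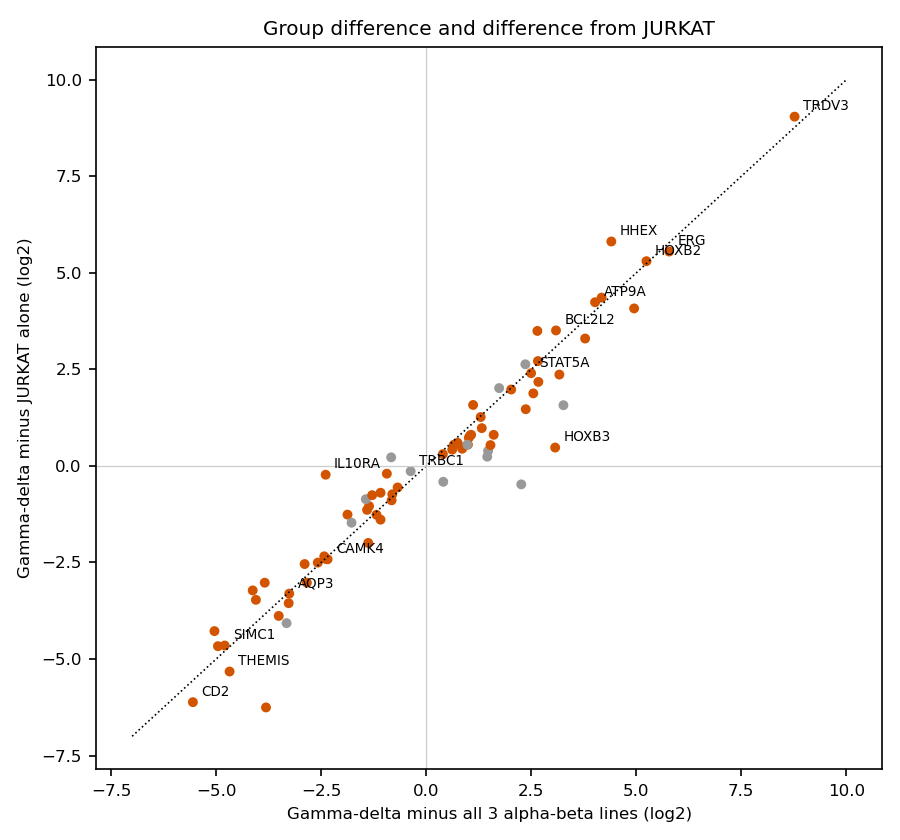
Difference of the gamma-delta mean from JURKAT alone (log2, y axis) against the difference from all 3 alpha-beta lines (log2, x axis) for the genes with printed differences, orange where the groups do not overlap and grey where they do, with a dotted line of equality. TRDV3, ERG, HOXB2, CD2 and SIMC1 lie near the line, while HOXB3 and IL10RA lie near 0 on the y axis.

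Over the whole profile the groups were separated only in part. On the 16384 most variable probe sets, 25.6% of the squared distances lay between the groups, and the exact permutation p was 0.1, the smallest possible. Any split of the lines puts some share between its groups, and the level for random splits is not given here. The 25.6% is therefore not the part of the variation that belongs to receptor type. The mean Euclidean distance was 193.6 within the gamma-delta lines, 220.8 within the alpha-beta lines and 219.9 between the groups. On average the alpha-beta lines were thus about as far from each other as from the gamma-delta lines. PEER and MOLT-14 were nearest to each other and LOUCY to PEER, HPB-ALL and MOLT-16 were nearest to each other, and JURKAT was nearest to MOLT-14, a gamma-delta line. HPB-ALL and MOLT-16 both had poly-A controls at background, so receptor type and spike-in status cannot be told apart for this pair. Leaving out JURKAT keeps only this pair as the alpha-beta group, and the share between groups was then 36.5%. This share was 28.2% to 30.3% on leaving out any other line.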

How the data were processed

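The members, gene lists and rules were chosen with earlier results of these data known. RNA of 11 T-ALL lines, 1 array each, was profiled by the authors, who deposited log2 values after RMA (background subtraction, quantile normalization across arrays and 1 summary value for each probe set, with the affy and limma packages, versions not given in the sources used here). Quantile normalization gives all arrays a near common distribution, so a global shift cannot be seen. Tests left out 62 control probe sets and took the other 54613, of which 41091 carry 1 gene symbol, 1801 several and 11721 none. In all, 41037 of the former had a symbol in RefSeq, none needing an update. For each of 19775 genes the probe set brightest on average across all 11 lines was used. Lines were grouped by name. Groups were compared with limma 3.58.1 in R 4.3.3 (lmFit and eBayes, 6 lines, no covariates), two-sided, with Benjamini-Hochberg adjustment over all probe sets at 0.05. Controls and distances (30% most variable probe sets) were compared by exact permutation. The fit was tested on simulated data. Named genes were the single-symbol receptor genes, the called genes, the 12 genes per direction with the widest gap between groups, all members of the CD3, V(D)J and gamma-delta lineage lists, of the other lists the 4 with the smallest p and those with groups apart, and NKL homeobox genes at least 2 log2 units apart. The number of arrays limits the precision.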

Additional observations from a re-analysis of the deposited data

Results flagged for a closer look

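Among 77 genes with printed differences, 13 had 1 of the 5 reference lines far from the other 4, by Dixon's test of the gap over the range, which chance passes in about 1 of 20 genes. At the receptor loci ALL-SIL was that line, with TRDV3 at 12.36 (the next line at 3.04) and TRBC1 at 10.03 (the next at 13.30). ALL-SIL thus had a high TRDV3 reading and the lowest TRBC1 reading of the 11 lines. It also stood apart for ELOVL4 with 3.06 and for TLX1 with 9.30. In CCRF-CEM, HHEX read 10.61, near LOUCY. CML-T1, with poly-A controls at background, stood apart for THEMIS (6.62), TOX2 (8.56), GATA2 (3.40), HLA-DPB1 (3.45), PAX5 (3.73) and MS4A1 (6.54). SUP-T1 stood apart for VAV3 (3.73) and HES5 (8.08).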

How the results depend on the processing

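Calls depended on the setting. Against 1 probe set and 1 gene, the intensity trend and the restriction to probe sets above the median mean each called 7 probe sets and 5 genes (ERG, TRDV3, HOXB2, CD2 and SIMC1), and all 11 lines called 2 of each (HOXB2 and SIMC1). The counts were 0 with the poly-A term, the lines with poly-A controls, all 11 lines with the poly-A term, the NKL status term and the floor at the 25th percentile, and 0 genes with the mean of probe sets. Leaving out each line in turn gave 0 calls throughout. Genes without overlap numbered 4390 to 6979 on leaving out a line (the most without JURKAT), 1846 among the brighter probe sets and 9853 with the lines with poly-A controls, since fewer genes or lines entered. The poly-A term on 6 lines gives the same differences as the gamma-delta lines against JURKAT. Of 1451 values that the 77 genes with printed differences took under alternatives, 13 reversed, namely HOXB7 (-0.48), HOXB13 (-0.41) and CD3G (0.22) with the poly-A term and with the lines with poly-A controls, PRKDC (-0.22), TLX1 (-0.22), HOXB13 (-0.17) and MS4A1 (0.49) with all 11 lines and the poly-A term, and, on leaving out a line, HOXB8 (-0.22 to 2.77) and HOXB9 (-0.29 to 1.79), negative without LOUCY, and HOXB13 (-0.12 to 0.82), negative without HPB-ALL. The other named genes are not in this count. The stem and progenitor median moved to 0.15 with all 11 lines and the poly-A term and to 2.04 among the brighter probe sets, and ran from 0.21 to 1.42 on leaving out a line. The NOTCH target median turned to -0.21 with all 11 lines and the poly-A term. Of the 22 lists, 16 had a median of the other sign under at least 1 alternative. The causes were not tested. No paired analysis was possible because replicate numbers only name the lines and pair nothing.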
